A study of Mus musculus with 18 samples.

Results

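The Schlafen genes Slfn1, Slfn2, Slfn3, Slfn4, Slfn5, Slfn8 and Slfn9 were examined in mouse tumours that had received OK-432, a penicillin-treated preparation of Streptococcus pyogenes, or had not. The 7 genes were chosen by family name from the 55291 genes of the table, and all 7 passed the filter that left 16816 genes for testing. The question was which members followed the interferon-stimulated genes of these tumours and which the neutrophil genes. RNA was taken from whole tumours on day 14, and transcript abundance was given as TPM, a length-scaled share of the transcripts of each library that keeps no read depth. There were 6 groups of 3 libraries each. Of these, 2 were CT26 tumours with OK-432 (CT26 OK432) and their controls (CT26 Ctrl). Another 2 were CT26-NY-ESO-1 tumours with OK-432 (CT26NYESO1 OK432) and their controls (CT26NYESO1 Ctrl). The last 2 were LL/2 tumours with OK-432 (LL2 OK432) and their controls (LL2 Ctrl). OK-432 exposure was 24 hours in every OK432 group. CT26 was derived from a BALB/c colon carcinoma, LL/2 from a Lewis lung carcinoma of C57BL/6 mice, and the name CT26-NY-ESO-1 carries that of a human cancer-testis antigen. All tumours were subcutaneous grafts in BALB/cJ or C57BL/6J hosts, and the labels do not state the strain of a single library or what the Ctrl tumours received. Nor is it stated whether each library is its own mouse: the p-values reflect variation among libraries only, and some of that may be technical.

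Schlafen proteins are found in many leukocytes, and most of their mouse genes are known to respond to type I interferon. The mouse family is divided into short members (Slfn1 and Slfn2), intermediate members (Slfn3 and Slfn4) and long members (Slfn5, Slfn8 and Slfn9), and the long ones carry a helicase-like domain. Slfn2 is needed for the quiescence and survival of T cells, forced Slfn1 arrests T cell growth, and Slfn4 is a gene of monocytes, macrophages and neutrophils that is induced by interferon and by bacterial products.

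The members lie side by side on chromosome 11 within 264 kb (mm10, GENCODE M21). Slfn5 (chr11:82951349-82964840, plus strand) comes first, followed by Slfn9 (chr11:82978390-82991830, minus strand) and Slfn8 (chr11:83002158-83020810, minus strand). Slfn2 (chr11:83065112-83070678), Slfn1 (chr11:83116849-83122670), Slfn4 (chr11:83175186-83190216) and Slfn3 (chr11:83191330-83215154) follow on the plus strand. The pseudogene Slfn10-ps lies between Slfn8 and Slfn2.

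The sequences directly upstream of the RefSeq transcript starts (GRCm38.p6) are shown for 5 members, because the interferon-type motifs of the family differ between them. Each is written 5′ to 3′ in the direction of its gene and ends at the base before the start. Capitals mark matches, on either strand, to GAAANNGAAA (the interferon-stimulated response element), AANNGAAA (a pair of half-sites for interferon regulatory factors, IRF) and GGAANNGAAA (the ETS-IRF composite element). The first and the third each hold the second. The stretches are chr11:82951937-82952101 for Slfn5, chr11:83020811-83020910 for Slfn8, chr11:82991831-82991930 for Slfn9, chr11:83065012-83065111 for Slfn2 and chr11:83174956-83175185 for Slfn4.
Slfn5: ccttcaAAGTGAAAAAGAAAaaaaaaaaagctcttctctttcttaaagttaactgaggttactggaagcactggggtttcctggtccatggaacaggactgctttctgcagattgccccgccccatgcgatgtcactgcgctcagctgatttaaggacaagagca
Slfn8: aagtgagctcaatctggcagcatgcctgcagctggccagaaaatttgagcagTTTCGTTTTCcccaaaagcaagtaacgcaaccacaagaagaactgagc
Slfn9: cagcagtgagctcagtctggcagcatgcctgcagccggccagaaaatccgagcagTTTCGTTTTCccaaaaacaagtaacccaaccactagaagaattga
Slfn2: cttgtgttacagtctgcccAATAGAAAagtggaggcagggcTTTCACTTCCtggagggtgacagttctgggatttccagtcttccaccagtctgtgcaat
Slfn4: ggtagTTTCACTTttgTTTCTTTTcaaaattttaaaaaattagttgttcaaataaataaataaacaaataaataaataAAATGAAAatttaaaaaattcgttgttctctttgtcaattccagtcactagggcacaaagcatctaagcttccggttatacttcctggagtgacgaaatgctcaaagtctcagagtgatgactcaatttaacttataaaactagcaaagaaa

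All 7 members had an entry in the RefSeq promoter table, and motifs were searched on both strands of the 300 bases around each start. The interferon-stimulated response element was matched in the 3 long members, Slfn5, Slfn8 and Slfn9, and in 3.44% of all 32851 promoters of the same length. Slfn8 and Slfn9 carried the same 10 letters, with the match beginning 48 bases upstream in Slfn8 and 45 upstream in Slfn9, and their printed stretches were identical at 86.4% of 103 aligned positions. The match of Slfn5 began 155 bases upstream, at the edge of a run of A, and its RefSeq start lies 753 bases inside the GENCODE gene. The IRF half-site pair was matched in all 7 members and in 23.9% of promoters. Slfn2 alone of the 7 matched the ETS-IRF element, found in 2.72% of promoters, and the gamma-activated site (TTCNNNGAA), found in 8.3%, was matched in no member. The core of PU.1, a myeloid and lymphoid transcription factor (AGGAAGT, 9.35% of promoters), was matched in Slfn1, Slfn2, Slfn3 and Slfn4 and overlapped the ETS-IRF match of Slfn2. The core of C/EBP, a factor family of granulocytes (TTGCNNAA, 10.8%), was matched in Slfn2 and Slfn3, and the NF-kappaB consensus (8.46%) in Slfn1 and Slfn9. These matches are letters in a window and were not tested as binding sites.

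**Figure D1:**
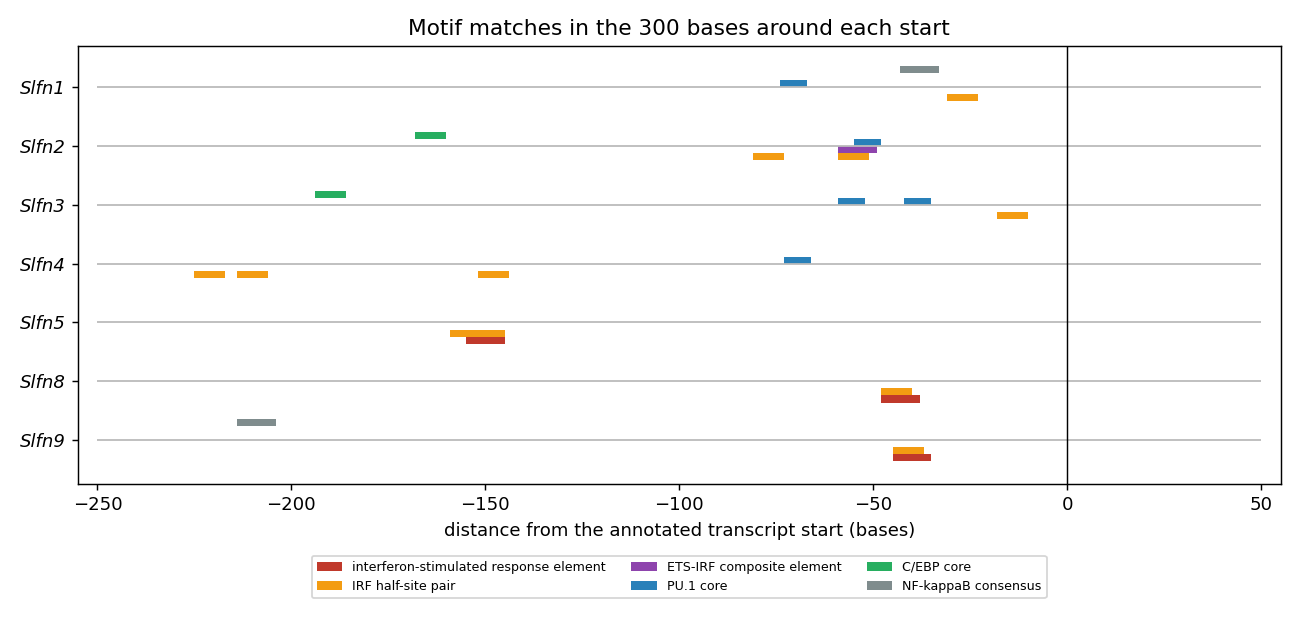
Motif matches in the 300 bases around the RefSeq start of each Schlafen gene, with the distance from the start in bases on the horizontal axis and 1 line per gene. Coloured bars are matches on either strand; the interferon-stimulated response element appears on the lines of Slfn5, Slfn8 and Slfn9, and IRF half-site pairs on all 7 lines.

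The family was well detected in every group. Members summed to 393 ± 18.4 TPM in CT26 OK432 tumours and 473 ± 45.8 in CT26 Ctrl tumours, to 327 ± 68.6 in CT26NYESO1 OK432 and 289 ± 18.8 in CT26NYESO1 Ctrl, and to 116 ± 23.1 in LL2 OK432 and 163 ± 56.6 in LL2 Ctrl (SD, n = 3 each). In TPM, which is scaled per transcript length, Slfn9 had the highest mean of the members in both CT26 groups and in CT26NYESO1 Ctrl, and Slfn1 or Slfn3 the lowest mean in every group. Slfn4 was the most variable member among libraries of CT26NYESO1 OK432, with a coefficient of variation of 46.8%, against 11.03% in CT26NYESO1 Ctrl. The neighbouring Slfn10-ps stood at 1.83 to 4.22 TPM in all libraries. Of all stretches of 75 bases in the transcripts, 7.52% of those of Slfn8 and 6.06% of those of Slfn9 also occurred in another family transcript, mostly Slfn10-ps, while in the others it was at most 2.38%. The sources used here do not give the read length, so a part of the Slfn8 and Slfn9 values could be shared between these neighbours.

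**Figure D2:**
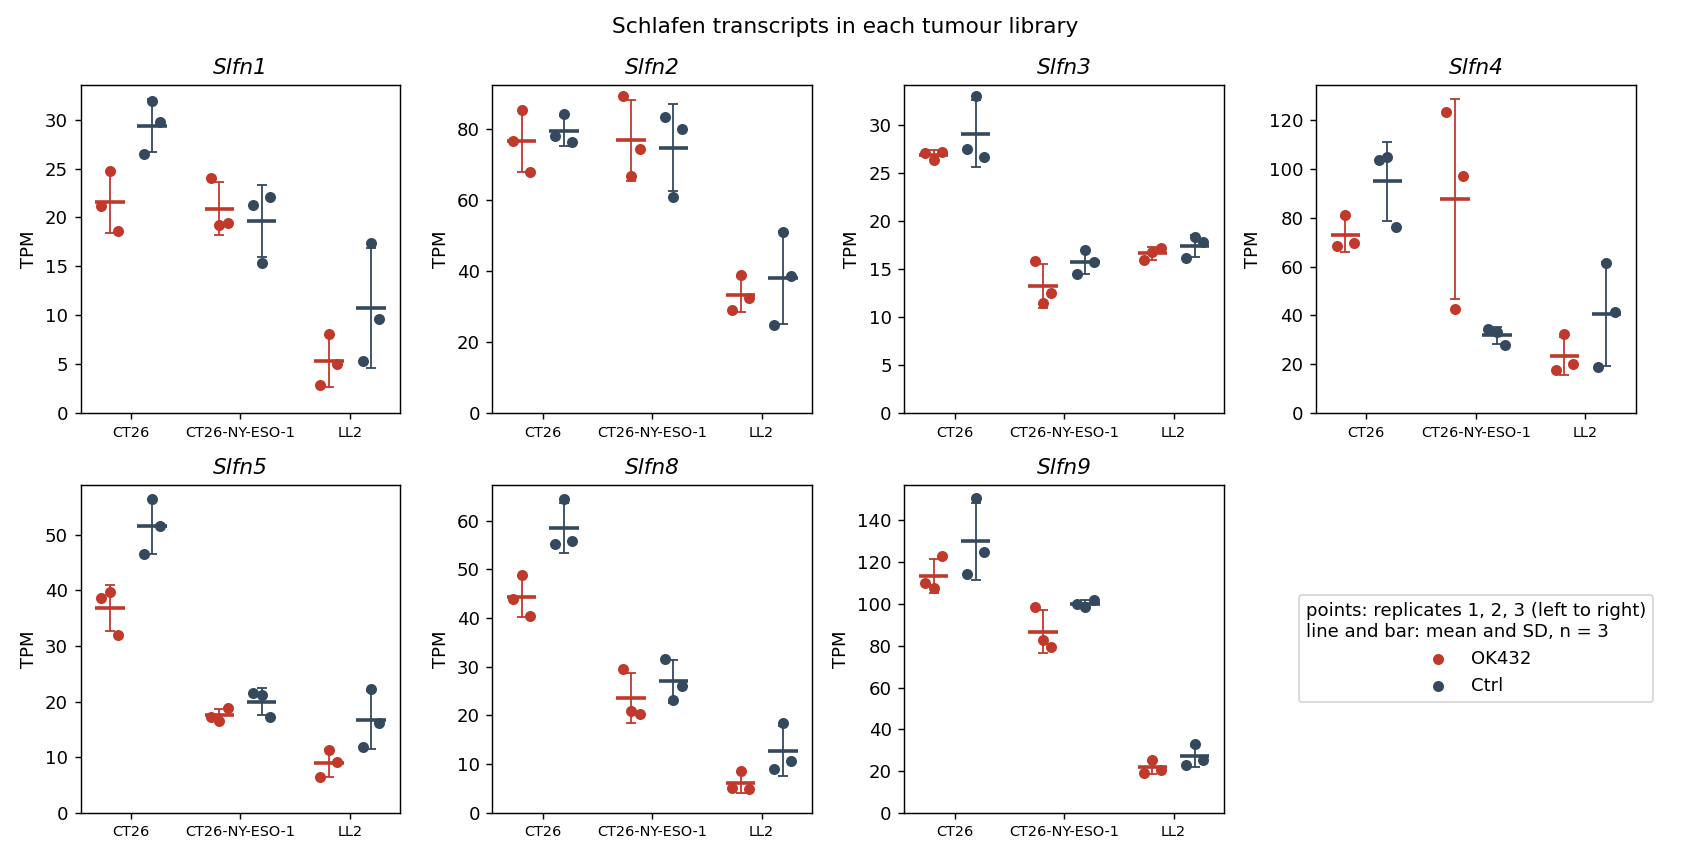
TPM of each Schlafen gene in the 18 libraries, with the OK432 group (red) left of its Ctrl group (dark blue) in each tumour type, replicates 1 to 3 as points, and the group mean with its SD. Slfn4 of CT26NYESO1 lay at 42.7 to 123 TPM with OK432 and 27.8 to 34.4 TPM in Ctrl, and the group means of LL2 were the lowest for Slfn1, Slfn2, Slfn5, Slfn8 and Slfn9.

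Values were compared as log2(TPM + 1), a scale that understates the change of low genes, with limma across all 16816 genes, and differences are OK432 minus Ctrl. No member passed an adjusted p of 0.05 in any tumour type. Against this stood 0% of all genes called in CT26, 0.666% in CT26NYESO1 and 0.0178% in LL2. At an unadjusted p under 0.05, 1 member (Slfn5) was lower in CT26, where 1.94% of all genes were. In CT26NYESO1, 2 members, Slfn3 and Slfn4, reached that level in opposite directions, against 16.2% of genes in either direction. In LL2, 4 members (Slfn1, Slfn5, Slfn8 and Slfn9) were lower at that level, against 2.95% of genes. The estimates of all 7 members were below 0 in CT26 and in LL2, against 49.5% and 54.3% of all genes. In CT26NYESO1 those of 4 members were below 0, against 55.9% of genes. The median difference of the members was −0.36 in CT26, −0.17 in CT26NYESO1 and −0.67 in LL2, while the median of all genes lay between −0.022 and 0.00037.

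**Figure D3:**
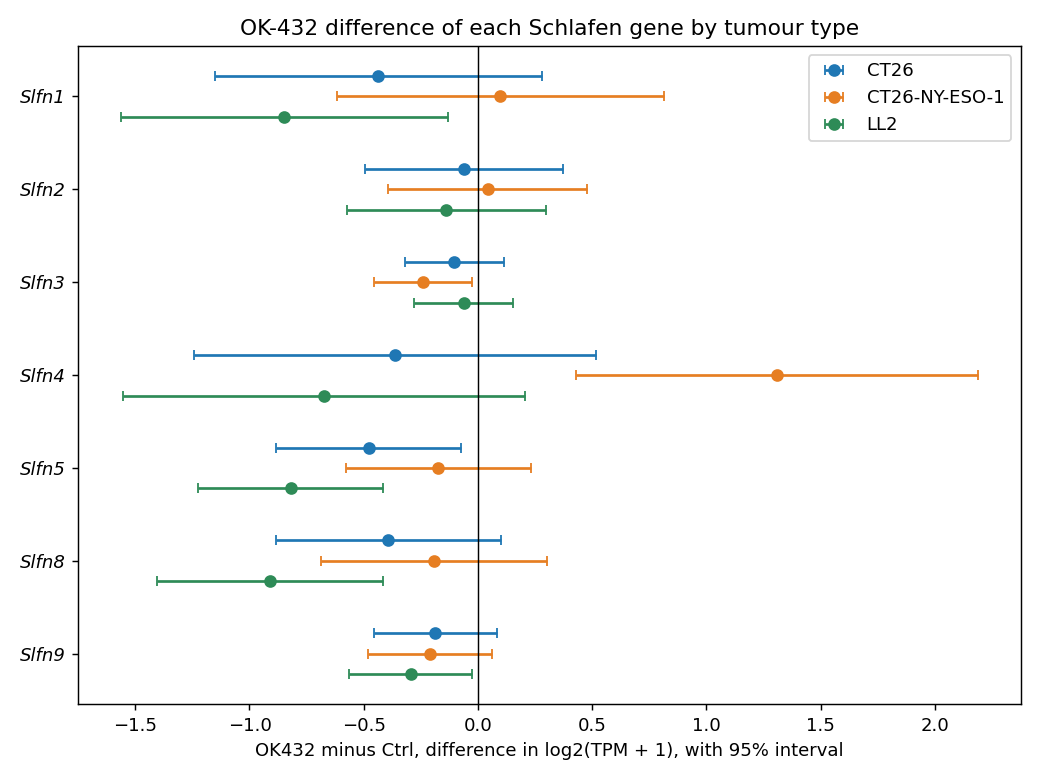
Difference of each Schlafen gene between OK432 and Ctrl tumours in log2(TPM + 1) with its 95% interval from limma, for CT26 (blue), CT26-NY-ESO-1 (orange) and LL2 (green). The interval of Slfn4 in CT26-NY-ESO-1, 0.43 to 2.19, lies above 0. Those of Slfn5 and Slfn8 in LL2, −1.22 to −0.41 and −1.40 to −0.42, lie below 0. So do the intervals of Slfn1 and Slfn9 in LL2, Slfn5 in CT26 and Slfn3 in CT26-NY-ESO-1. None passed the adjusted p.

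Among the long members, Slfn5, a nuclear family member, was lower in OK432 tumours of CT26 and LL2 without passing the test. In CT26, Slfn5 had 38.6, 39.6 and 32.0 TPM in OK432 libraries, against 46.6, 56.5 and 51.5 TPM in Ctrl libraries. In LL2 it had 6.45, 11.4 and 9.10 TPM in OK432 libraries, against 11.8, 22.3 and 16.2 TPM in Ctrl libraries. In both tumour types every OK432 library lay below every Ctrl library. The differences of Slfn5 were −0.48 ± 0.19 in CT26 (SE; limma adjusted p = 1) and −0.82 ± 0.19 in LL2 (adjusted p = 0.485). In CT26NYESO1 it had 17.3, 16.5 and 18.8 TPM in OK432 libraries, against 21.5, 21.2 and 17.2 TPM in Ctrl libraries, which overlapped (−0.17, 95% interval −0.58 to 0.23). Without LL2 Ctrl replicate 1, the lowest of the LL2 Ctrl libraries for Slfn5, the LL2 difference was −1.03 and passed (adjusted p = 0.0469). Over all 18 libraries left out in turn, its adjusted p in LL2 lay between 0.0469 and 1.

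Slfn8, a long member with a helicase-like domain, gave the lowest estimate of the family in LL2. It had 5.02, 8.62 and 4.94 TPM in LL2 OK432 libraries, against 8.99, 18.5 and 10.7 TPM in LL2 Ctrl libraries (−0.91 ± 0.23, SE; limma adjusted p = 0.52). In CT26 it had 43.8, 48.8 and 40.5 TPM in OK432 libraries, against 55.3, 64.4 and 55.8 TPM in Ctrl libraries (−0.39, adjusted p = 1). The OK432 libraries of Slfn8 lay below all Ctrl libraries in both. In CT26NYESO1 they overlapped, at 29.6, 20.96 and 20.3 TPM in OK432 libraries and 31.7, 23.2 and 26.1 TPM in Ctrl libraries (−0.19, 95% interval −0.69 to 0.30).

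Slfn9, the neighbour of Slfn8 and likewise a long member, had estimates nearer 0 than Slfn5 and Slfn8 in CT26 and LL2. It had 110.3, 108 and 123 TPM in CT26 OK432 libraries, against 114, 151 and 125 TPM in CT26 Ctrl libraries, and the groups overlapped (−0.19, 95% interval −0.46 to 0.084). In CT26NYESO1 it had 98.4, 82.7 and 79.4 TPM in OK432 libraries, against 100.2, 98.6 and 102 TPM in Ctrl libraries. There the highest OK432 library lay just under the lowest Ctrl library (−0.21, limma adjusted p = 0.444). In LL2 the overlapping values were 19.3, 25.1 and 20.7 TPM in OK432 libraries and 22.9, 32.8 and 25.3 TPM in Ctrl libraries (−0.29, adjusted p = 0.896).

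Of the short members, Slfn1 had 21.2, 24.8 and 18.7 TPM in CT26 OK432 libraries, against 26.5, 31.9 and 29.8 TPM in CT26 Ctrl libraries. Every OK432 library was below every Ctrl library, yet the difference of −0.44 had a 95% interval of −1.15 to 0.28. In LL2 it had 2.83, 8.10 and 5.03 TPM in OK432 libraries, against 5.28, 17.4 and 9.57 TPM in Ctrl libraries, with overlap (−0.85 ± 0.33, SE; limma adjusted p = 0.868). In CT26NYESO1 the values of Slfn1 were 24.0, 19.3 and 19.4 TPM in OK432 libraries and 21.3, 15.4 and 22.1 TPM in Ctrl libraries. That difference was 0.098 (95% interval −0.62 to 0.81), and its sign turned when CT26NYESO1 OK432 replicate 1 or Ctrl replicate 2 was left out.

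Slfn2, the T cell quiescence gene, had estimates close to 0 in all 3 tumour types. In CT26 it had 76.6, 85.4 and 67.9 TPM in OK432 libraries, against 78.2, 84.4 and 76.4 TPM in Ctrl libraries (−0.06, 95% interval −0.49 to 0.37). In CT26NYESO1 it had 89.3, 66.8 and 74.5 TPM in OK432 libraries, against 83.6, 60.8 and 80.0 TPM in Ctrl libraries (0.042, −0.40 to 0.48). In LL2 it had 29.0, 38.9 and 32.4 TPM in OK432 libraries, against 24.8, 51.1 and 38.5 TPM in Ctrl libraries (−0.14, −0.57 to 0.30). The groups overlapped in each tumour type, and the intervals reached to both sides of 0.

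Slfn3, an intermediate member named in studies of T cell and gut epithelial differentiation, had group means that lay close together in CT26 and LL2. In CT26 it had 27.1, 26.3 and 27.2 TPM in OK432 libraries, against 27.5, 33.1 and 26.7 TPM in Ctrl libraries (−0.10, 95% interval −0.32 to 0.11). In LL2 it had 15.9, 16.8 and 17.2 TPM in OK432 libraries, against 16.1, 18.3 and 17.8 TPM in Ctrl libraries (−0.062, −0.28 to 0.15). In CT26NYESO1 it had 15.8, 11.4 and 12.5 TPM in OK432 libraries, against 14.5, 17.0 and 15.7 TPM in Ctrl libraries. These overlapped, and the difference was −0.24 ± 0.10 (SE; limma adjusted p = 0.246).

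Slfn4, the myeloid member, had the largest positive estimate of the family, in CT26NYESO1. It had 123, 42.7 and 97.2 TPM in CT26NYESO1 OK432 libraries, against 34.4, 33.4 and 27.8 TPM in Ctrl libraries, so that every OK432 library lay above every Ctrl library. The difference was 1.31 ± 0.41 (SE), a 2.48-fold ratio on the log2(TPM + 1) scale, and did not pass (limma adjusted p = 0.141). Without CT26NYESO1 OK432 replicate 2, the lowest of the 3, the difference was 1.75 and passed (adjusted p = 0.0222). Over all 18 libraries left out in turn the difference lay between 1.001 and 1.75, with adjusted p up to 0.459, and in a fit of the CT26NYESO1 groups alone the adjusted p was 0.372. In CT26, Slfn4 had 68.2, 81.2 and 69.8 TPM in OK432 libraries, against 104, 105 and 76.2 TPM in Ctrl libraries (−0.36, 95% interval −1.24 to 0.52). In LL2 it had 17.7, 32.4 and 19.9 TPM in OK432 libraries, against 19.0, 61.4 and 41.3 TPM in Ctrl libraries (−0.67, −1.55 to 0.21). The groups overlapped in CT26 and in LL2.

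Set against non-overlap across the table, 3 members (Slfn1, Slfn5 and Slfn8) had all CT26 OK432 libraries below all CT26 Ctrl libraries, as had 5.10% of all genes. In LL2 these were Slfn5 and Slfn8, 2 members, against 5.17% of genes. In CT26NYESO1 1 member, Slfn4, lay wholly above, against 7.14% of genes, and 1 member, Slfn9, wholly below, against 9.84%.

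The average of the 3 OK432 differences called no member by limma (0.172% of all genes). At an unadjusted p under 0.05, 4 members were lower on average, Slfn3, Slfn5, Slfn8 and Slfn9, against 5.94% of genes. The averages were −0.49 ± 0.11 for Slfn5 (SE; adjusted p = 0.123), −0.50 ± 0.13 for Slfn8 (0.254), −0.23 ± 0.074 for Slfn9 (0.314) and −0.14 ± 0.059 for Slfn3 (0.442). Without LL2 Ctrl replicate 1 the average of Slfn5 was −0.56 and passed (adjusted p = 0.0261). For Slfn4, whose tumour types had opposite signs, the average was 0.091 (95% interval −0.42 to 0.60).

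Whether the response of a member differed between tumour types was tested on the difference of the OK432 effects, and no member passed. Of all genes, 0% were called between CT26NYESO1 and CT26, 0.00595% between LL2 and CT26, and likewise 0.00595% between LL2 and CT26NYESO1. At an unadjusted p under 0.05 the members numbered 1 (against 8.84% of genes), 0 (4.89%) and 3 (8.81%) in these comparisons. Slfn4 was the member of the first, where its effect in CT26NYESO1 exceeded that in CT26 by 1.67 ± 0.58 (SE; limma adjusted p = 0.47). In the third, its effect in LL2 was lower than that in CT26NYESO1, by −1.98 ± 0.58 (adjusted p = 0.323). The other members of the third were Slfn5 (−0.65, adjusted p = 0.518) and Slfn8 (−0.72, 0.559).

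The interferon and neutrophil genes of the same libraries went in opposite directions by their estimates. Of 32 type I interferon-stimulated genes, none was called by limma in any tumour type, and 32 had estimates below 0 in CT26, 30 in CT26NYESO1 and 32 in LL2. Their median difference was −0.36 in CT26, −0.26 in CT26NYESO1 and −1.04 in LL2, beside −0.36, −0.17 and −0.67 for the Schlafen members. In LL2, 30 of the 32 had an unadjusted p under 0.05, against 0 in CT26 and 0 in CT26NYESO1. Of all genes, 5.26% in LL2, 4.1% in CT26 and 16.2% in CT26NYESO1 had one. The summed list spread from 688 to 1781 TPM over the LL2 Ctrl libraries. Among the 30 was Isg15, a ubiquitin-like antiviral protein, at −1.20 in LL2 (limma adjusted p = 0.823). The first gene of the list, Irf7, an amplifier of interferon transcription, differed by −0.27 in CT26NYESO1 (adjusted p = 0.808). The interferon-gamma list of 20 genes had medians of −0.19, −0.41 and −0.50 in CT26, CT26NYESO1 and LL2, with none called and 0, 1 and 6 genes at an unadjusted p under 0.05.

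Neutrophil markers were tested for 12 of 16 genes, and 6 rose in CT26NYESO1, none in CT26 and none in LL2 (limma adjusted p under 0.05). Of the 12, 4 in CT26, 10 in CT26NYESO1 and 5 in LL2 had an unadjusted p under 0.05, beside 4.1%, 16.2% and 5.26% of all genes. The 6 calls ended in a fit of the CT26NYESO1 groups alone, where 0 genes of the whole table were called, and without CT26NYESO1 OK432 replicate 3 a total of 4 genes of the table were called. S100a9 and S100a8, the subunits of calprotectin, rose by 6.04 and 4.62 in CT26NYESO1 (adjusted p = 0.00434 and 0.00954). Mcemp1 and Trem1, a mast and myeloid cell membrane protein and a receptor that amplifies inflammation, rose by 1.36 and 1.19 (0.0341 and 0.0376). The median of the 12 was 0.60 in CT26, 1.36 in CT26NYESO1 and 0.73 in LL2. Summed neutrophil marker TPM in CT26NYESO1 was 849, 149.8 and 622 in OK432 replicates 1, 2 and 3, against 58.4, 54.0 and 74.2 in Ctrl replicates, and the OK432 replicates stood in the same order for Slfn4. In CT26 the sum was 135 to 233 in OK432 libraries, against 51.5 to 63.6 in Ctrl libraries, and in LL2 it was 199.6 to 336 in OK432 libraries, against 66.5 to 80.5 in Ctrl libraries. The neutrophil sums of the groups did not overlap in any tumour type, while the estimates of Slfn4 were below 0 in CT26 and LL2. S100a8 and S100a9 carried much of these sums, at 37.5 and 84.2 of 194.5 TPM on average in CT26 OK432. In LL2 OK432 they averaged 47.6 and 94.2 of 245 TPM. Of the 12 tested markers, 12 in CT26 and 11 in LL2 had estimates above 0. These counts, and the medians of the 12, are in part set by the filter. Retnlg and Mmp8 stayed under 1 TPM in all Ctrl libraries of CT26 and LL2 and reached 1 TPM in OK432 libraries. The summed type I interferon genes of the CT26NYESO1 libraries were 2666, 1884 and 1854 TPM in OK432 replicates 1, 2 and 3. In Ctrl replicates they were 3244, 2144 and 2387 TPM. The OK432 sums of this list did not stand in the order of Slfn4. As mean log2(TPM + 1), the list stood at 5.85, 5.30 and 5.37 in OK432 replicates 1, 2 and 3, which is that order. Each of these orders, that of the neutrophil sum included, rests on 3 libraries only. The part of cell composition in the Slfn4 values was not tested. The summed general leukocyte markers were 1172 TPM in CT26NYESO1 OK432 tumours and 1177 in Ctrl tumours on average. In these bulk samples, fewer cells of a type and less RNA per cell cannot be told apart.

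To separate the members from the group means, the deviation of each library from its group was compared between every member and 13 list scores, the score being the mean log2(TPM + 1) of a list. Relations numbered 91, each with a two-sided exact permutation test over 46656 rearrangements of libraries within groups, and 14 passed after Benjamini-Hochberg adjustment, with both Pearson's r and Spearman's rho. The lists were chosen by function but with earlier results of these data known, and no Schlafen gene was in them. The relations that passed involved interferon, T cell, natural killer cell and general leukocyte lists, and none involved the neutrophil list.

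With the type I interferon list, Slfn8 had the highest Pearson r of the members, 0.924, with rho = 0.895 over 18 libraries (permutation p = 0.000107 and 0.000364, adjusted p = 0.00975 and 0.00829). Without the 2 libraries farthest from the median of the list it was 0.905, and it passed with each of the 18 libraries left out (r from 0.894 to 0.978). Slfn2 had r = 0.886 and the highest rho, 0.901, with this list (permutation p = 0.000493 and 6.43e-05, adjusted p = 0.0112 and 0.00585), or 0.841 without the 2 farthest. Slfn4 had r = 0.832 and rho = 0.833 (permutation p = 0.000922 and 0.000879, adjusted p = 0.014 and 0.012), or 0.747 without the 2 farthest. Slfn2 passed in 15 and Slfn4 in 14 of the 18 leave-outs, with adjusted p up to 0.0585 and 0.0717. The relations of Slfn1 (r = 0.834), Slfn5 (0.753) and Slfn9 (0.738) with this list did not pass (exact permutation, adjusted p = 0.0825, 0.162 and 0.0742), and Slfn3 had r = 0.396 (0.261).

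With the interferon-gamma list, Slfn1 had r = 0.901 and rho = 0.895 (exact permutation p = 0.000343 and 0.0006, adjusted p = 0.0112 and 0.0109), or 0.883 without the 2 farthest libraries, and passed in all 18 leave-outs. Slfn2 (r = 0.884), Slfn8 (0.87) and Slfn9 (0.717) also passed (exact permutation, adjusted p = 0.0211, 0.014 and 0.0433), in 12, 14 and 5 of the 18 leave-outs. Slfn1, Slfn2 and Slfn8 passed with the T cell list too, at r = 0.762, 0.739 and 0.743 (exact permutation, adjusted p = 0.0112, 0.0315 and 0.015), in 18, 8 and 15 of the 18 leave-outs. General leukocyte markers had r = 0.761 with Slfn1 and 0.728 with Slfn8 (0.0211 and 0.0419), which passed in 13 and 9 of the 18 leave-outs, and the part of leukocyte content in the relations of these members was not tested. Without LL2 Ctrl replicate 1, 2 or 3 the number of relations that passed was 3 each, without LL2 OK432 replicate 2 it was 5, and without CT26NYESO1 Ctrl replicates 1 or 2 it was 9 or 8.

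With the neutrophil list, Slfn3 had the highest correlation of the members (r = 0.665, exact permutation p = 0.0586, adjusted p = 0.184), and 0.313 without the 2 libraries farthest from the median. Slfn4 followed with r = 0.524 (exact permutation p = 0.185, adjusted p = 0.41), and 0.0492 without these 2 libraries, CT26NYESO1 OK432 replicates 1 and 2. The other members lay between 0.16 and 0.315.

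**Figure D4:**
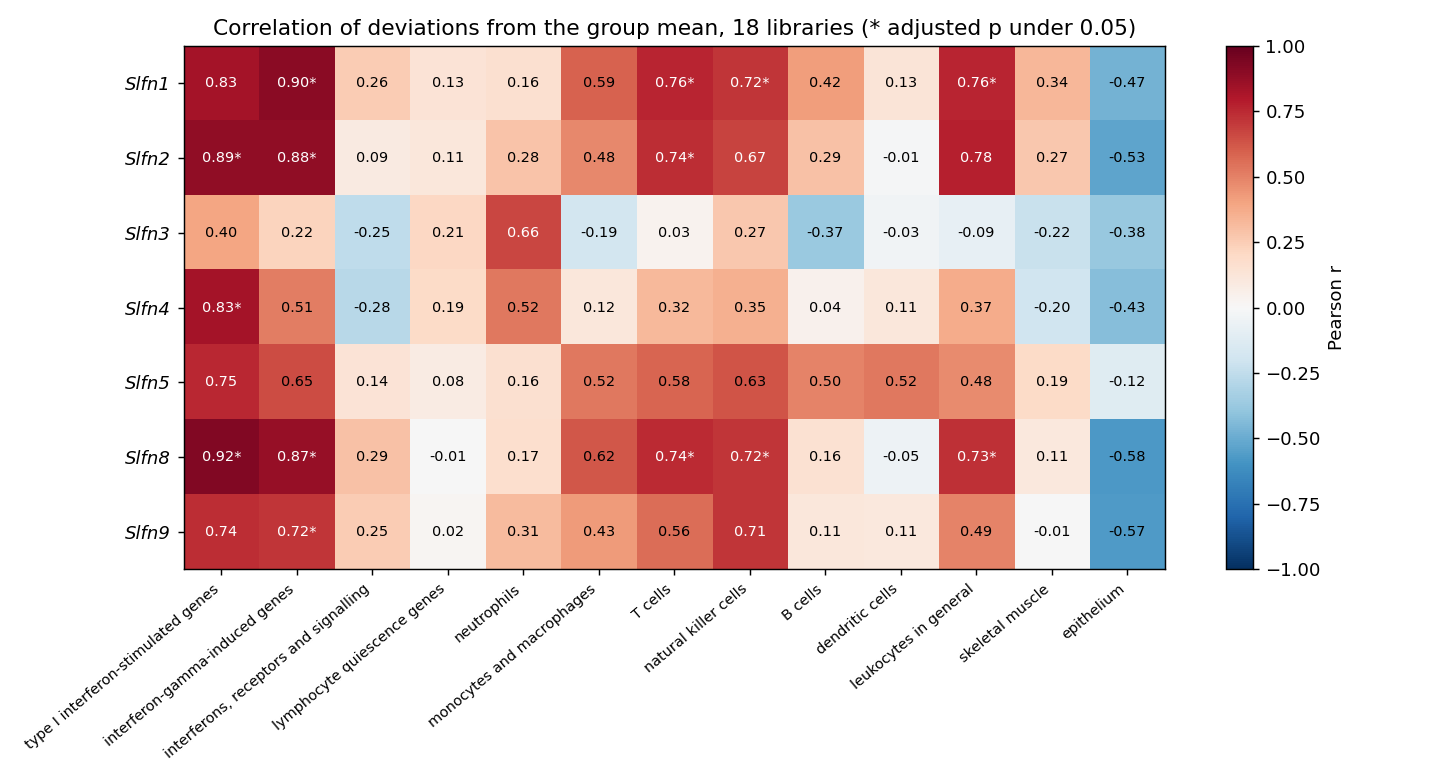
Pearson r between the deviations of each Schlafen gene (lines) and of 13 list scores (columns) from their group means over 18 libraries, from −1 (blue) to 1 (red). Asterisks mark the 14 relations with adjusted p under 0.05 by exact permutation; none stands in the neutrophil column, where Slfn3 (0.66) and Slfn4 (0.52) have the highest values.

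When the tumour type mean instead of the group mean was subtracted, so that the OK432 response entered the comparison, the members parted in another way. This gives descriptions over 18 libraries that share 3 tumour types and have no p. The median r with the 32 type I interferon genes was 0.929 for Slfn8, 0.849 for Slfn1, 0.833 for Slfn5, 0.804 for Slfn9, 0.737 for Slfn2, 0.532 for Slfn4 and 0.444 for Slfn3. Across all genes the median r with a member lay between −0.0313 and 0.0663. The median r with the 12 neutrophil genes was 0.403 for Slfn4, with 11 of 12 above 0, and 0.0528 for Slfn2, while the other 5 members were between −0.396 and −0.185. Slfn4 and Slfn2 thus had positive medians with both lists, Slfn2 with 8 of 12 neutrophil genes above 0. Among the members, Slfn1 and Slfn8 correlated at 0.897, Slfn5 and Slfn8 at 0.892, and the neighbours Slfn3 and Slfn4 at 0.109.

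**Figure D5:**
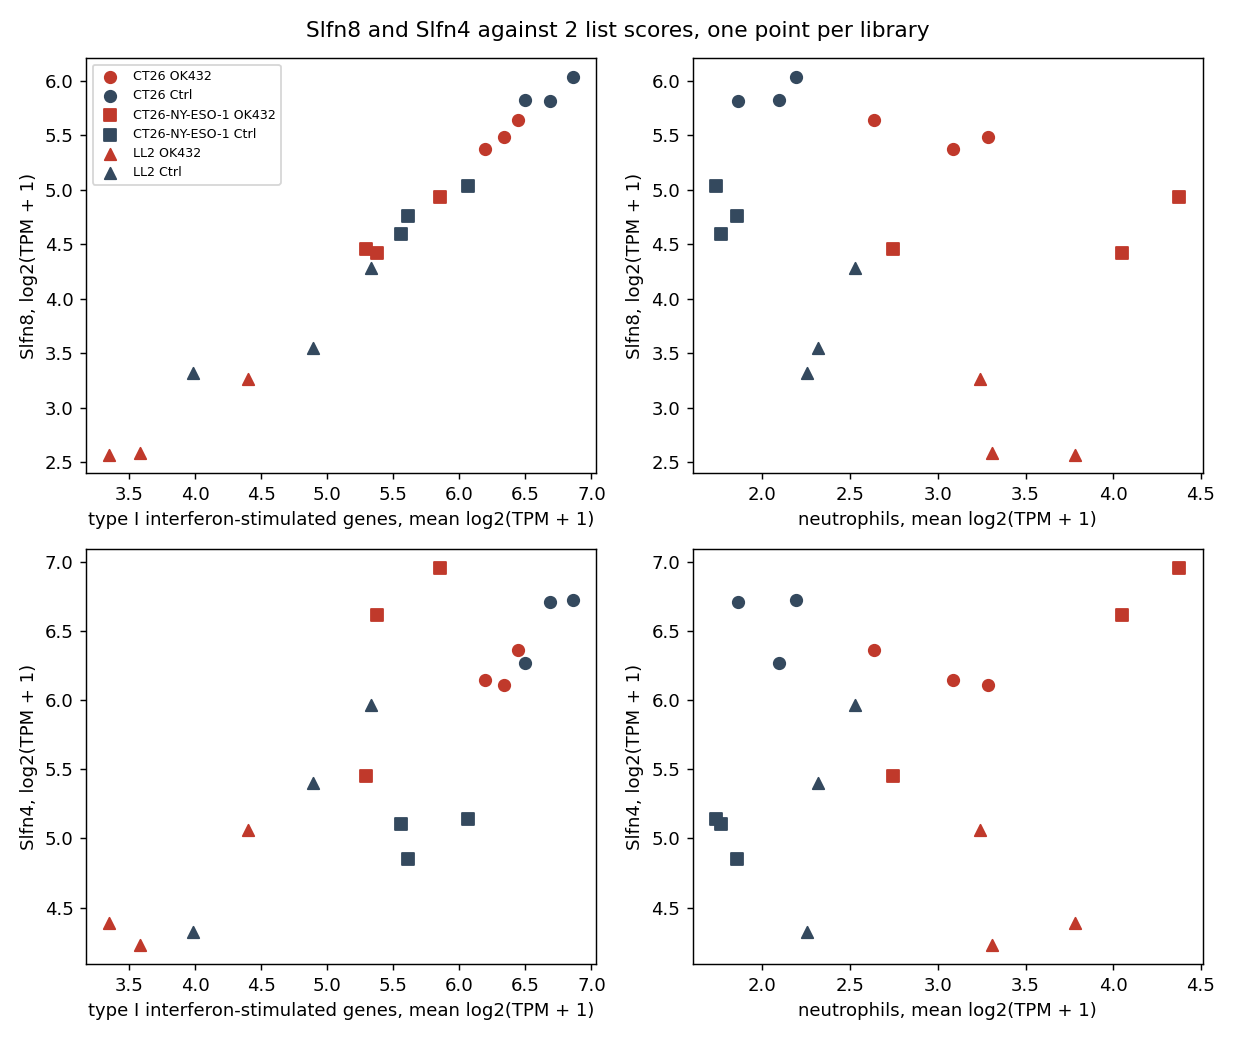
Slfn8 (top) and Slfn4 (bottom) in log2(TPM + 1) against the mean log2(TPM + 1) of the type I interferon-stimulated genes (left) and of the neutrophil genes (right), with 1 point per library, OK432 in red and Ctrl in dark blue. After subtraction of tumour type means the median r of Slfn8 with the interferon genes was 0.929, and the CT26-NY-ESO-1 OK432 libraries of Slfn4, at 42.7 to 123 TPM, lie above the Ctrl libraries, at 27.8 to 34.4 TPM.

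The genes most like each member were found by the same tumour-centred r across all tested genes outside the family. For Slfn8 they were Trim30a (0.982), Parp14 (0.972) and Ifih1 (0.969), of which Ifih1 is a cytoplasmic sensor of double-stranded RNA. For Slfn5 they were Ly6c2 (0.965), a marker of inflammatory monocytes, Ifi205 (0.944) and Ifit2 (0.931), and for Slfn1 they were Ifi209 (0.956), Ms4a4c (0.926) and Ifi204 (0.923). Slfn9 was most like Dck (0.898), deoxycytidine kinase, Eif2ak2 (0.897), the interferon-induced kinase PKR, and Trim30a (0.895). Slfn2 was most like the class I histocompatibility genes H2-Q4 (0.93), H2-K1 (0.922) and H2-Q6 (0.921). Slfn3 was most like Ppia (0.89), a peptidyl-prolyl isomerase, Cdc7 (0.874), a kinase of DNA replication, and Cpsf2 (0.873), a subunit of the RNA cleavage complex.

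Slfn4 was most like Rsad2 (0.88), the antiviral protein viperin, Soat1 (0.872), a cholesterol-esterifying enzyme, and Trim30b (0.866). Rsad2 was 1 of the 2 type I interferon genes with an estimate above 0 in CT26NYESO1, at 30.0 ± 10.8 TPM in OK432 tumours and 18.2 ± 1.01 in Ctrl tumours (SD, n = 3 each; 0.62, limma adjusted p = 0.46). The second was Isg20, an exonuclease (0.33, adjusted p = 0.443). Trim30b differed by 1.13 there (adjusted p = 0.0672), and Soat1 by 0.28 (0.139). In LL2, Rsad2 stood at 8.25 ± 3.41 TPM in OK432 tumours and 21.02 ± 10.9 in Ctrl tumours (−1.16, adjusted p = 0.758), the same sign as Slfn4.

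Between Ctrl tumours of different types, most members were called. In LL2 Ctrl against CT26 Ctrl tumours, all 7 members were called lower by limma, beside 39.7% of all genes. Slfn9 was 27.02 ± 5.19 TPM in LL2 Ctrl and 129.9 ± 18.6 in CT26 Ctrl tumours (SD, n = 3 each; −2.23, adjusted p = 1.3e-10). Slfn8 was 12.7 ± 5.07 TPM in LL2 Ctrl and 58.5 ± 5.11 in CT26 Ctrl tumours (−2.17, adjusted p = 6.09e-07). The others differed by −1.60 (Slfn5), −1.502 (Slfn1), −1.34 (Slfn4), −1.10 (Slfn2) and −0.70 (Slfn3), and all 7 stayed called with any 1 library left out, Slfn4 with −0.89 (adjusted p = 0.0487) without LL2 Ctrl replicate 1. The 32 type I interferon genes were all lower in the same comparison (median −2.07), as were 7 of 10 general leukocyte markers (median −0.71). Of 20 interferon-gamma genes, 19 were lower (median −2.13), and the 12 neutrophil genes had 3 higher and 1 lower. Of all 16816 genes, 4886 were called higher in this comparison.

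In CT26NYESO1 Ctrl against CT26 Ctrl tumours, 5 members were called lower, beside 43.9% of all genes. Slfn4 was 31.8 ± 3.51 TPM in CT26NYESO1 Ctrl and 94.9 ± 16.2 in CT26 Ctrl tumours (SD, n = 3 each; −1.54, limma adjusted p = 0.00452). Slfn5 was 20.0 ± 2.39 TPM in CT26NYESO1 Ctrl and 51.5 ± 4.96 in CT26 Ctrl tumours (−1.33, adjusted p = 1.38e-05). Slfn8 differed by −1.10 and Slfn3 by −0.84 (adjusted p = 0.000658 and 1.52e-06). The median of all genes in this comparison was −0.18 as deposited and 0 after median-of-ratios rescaling. The call of Slfn9 (−0.36, adjusted p = 0.0201) ended with that rescaling (−0.15, adjusted p = 0.314) and without CT26 Ctrl replicate 2 (−0.25, 0.113) or CT26NYESO1 Ctrl replicate 2 (−0.35, 0.0502). Slfn2 (−0.10, or 0.11 after rescaling) and Slfn1 (−0.57, adjusted p = 0.148) were not called. Of the type I interferon list, 19 of 32 genes were lower here (median −0.91), and 6 of 13 T cell genes were higher (median 0.70). The interferon-gamma list of 20 genes had 2 higher and 1 lower (median 0.11), and the 12 neutrophil genes had 1 higher and 2 lower. For these counts, 3546 of all 16816 genes were called higher.

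In LL2 Ctrl against CT26NYESO1 Ctrl tumours, 4 members were called lower, beside 27.5% of all genes. These were Slfn9 (−1.87), Slfn8 (−1.08), Slfn2 (−0.999) and Slfn1 (−0.93), with limma adjusted p = 1.67e-09, 0.00075, 0.000488 and 0.0239. The call of Slfn1 ended without CT26NYESO1 Ctrl replicates 1 or 3 (adjusted p = 0.0672 and 0.0739) or LL2 Ctrl replicates 1 or 3 (0.127 and 0.0545). Slfn3 (0.14), Slfn4 (0.20) and Slfn5 (−0.28, adjusted p = 0.211) were not called, and Slfn5 passed without LL2 Ctrl replicate 2 (−0.49, adjusted p = 0.0245). In the same comparison all 13 T cell genes (median −1.37) and 10 of 13 monocyte and macrophage genes were lower. So were 7 of 10 general leukocyte markers, 18 of 32 type I interferon genes (median −0.84) and all 20 interferon-gamma genes (median −2.10). The 12 neutrophil genes had 3 higher and 0 lower, where 6528 of all 16816 genes were called higher. The part of these lists in the differences of the members was not tested. The cell line and, where it differs, the host strain cannot be told apart in these comparisons. The epithelial marker sum also ran with tumour type. It was 374 to 567 TPM in LL2 Ctrl, 10.2 to 15.2 in CT26NYESO1 Ctrl and 1.27 to 1.39 in CT26 Ctrl libraries. The keratin genes Krt8 and Krt18 made up most of it in LL2 Ctrl, at 204 and 272 TPM on average. Cdh1, another marker of the list, averaged 1.01 TPM in LL2 Ctrl, 0.95 in CT26NYESO1 Ctrl and 0.97 in CT26 Ctrl. Epcam, an epithelial adhesion gene, was listed at 0 in all CT26 Ctrl libraries and averaged 0.021 TPM in LL2 Ctrl and 0.17 in CT26NYESO1 Ctrl. Nkx2-1, a lung epithelial factor, was at 0 in all LL2 libraries and in all CT26 libraries.

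By group mean, the order of levels from high to low began with CT26 Ctrl for all 7 members. For Slfn5 and Slfn8 it went on to CT26 OK432, CT26NYESO1 Ctrl, CT26NYESO1 OK432, LL2 Ctrl and LL2 OK432, and neighbours overlapped between the CT26NYESO1 groups for both, and between CT26NYESO1 OK432 and LL2 Ctrl for Slfn5. Slfn9 had the same order, with overlap between the CT26 groups and between the LL2 groups. Slfn4 had CT26NYESO1 OK432 in the second place, overlapping CT26 Ctrl in the first and CT26 OK432 in the third. For Slfn2 the first 4 groups overlapped and the LL2 groups stood apart below them, while for Slfn1 every neighbour below CT26 Ctrl overlapped the next. Slfn3 had its lowest groups in CT26NYESO1, at 13.2 ± 2.27 TPM with OK432 and 15.7 ± 1.26 in Ctrl, with LL2 just above, at 16.6 ± 0.658 TPM in OK432 and 17.4 ± 1.17 in Ctrl (SD, n = 3 each).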

How the data were processed

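The authors deposited 1 table of TPM values for 55291 genes in 18 libraries, each column matched to 1 sample. Per the submitters' processing notes, the tools were STAR 2.7.3a, StringTie 2.1.2 and Trim Galore 0.6.5, with build mm10, and the labels' protocols name a stranded mRNA kit. The sources used here do not give annotation, strand setting or read length, and depth is unknown, so no counting interval is given. The family and all gene lists were chosen with earlier results of these data known.

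From the deposited TPM, log2(TPM + 1) was computed, and genes with TPM of at least 1 in at least 3 libraries were kept (16816). limma 3.58.1 (R 4.3.3), with trended robust empirical Bayes, fitted 6 group means with 12 residual degrees of freedom. p-values were Benjamini-Hochberg adjusted over all genes, and a gene was called under 0.05. Scripts were tested on simulated data. Named genes were the members, the 3 genes most like each, called list genes (up to 4) or otherwise the first 2, and other Slfn genes. Rsad2, Isg20, Epcam, Cdh1 and Nkx2-1 were named after their values were seen. Promoter sequences came from RefSeq (GRCm38.p6). Alternatives were another pseudocount, no filter, 2 rescalings, fits of single comparisons, a replicate block and leaving out each library.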

Additional observations from a re-analysis of the deposited data

How the results depend on the processing

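With 1 library left out, members called for the OK432 effect numbered 0 to 1 in CT26NYESO1, in LL2 and on average, and relations passing the correlation test numbered 3 to 19. Instead of 14, 12 to 14 relations passed under another pseudocount or rescaling. Of 53 member differences, 305 of 311 values under the other settings kept their sign and side of the threshold. For Slfn2 in CT26NYESO1 Ctrl against CT26 Ctrl, median-of-ratios rescaling and quantile normalization both turned −0.10 into 0.11, and quantile normalization ended the call of Slfn9 there (−0.16, adjusted p = 0.246). Fits of only the groups compared called Slfn1 in that comparison (−0.57, limma adjusted p = 0.00673) and ended its call in LL2 Ctrl against CT26NYESO1 Ctrl (−0.93, 0.0826); for the average no such fit was run. Leaving out 1 library turned the sign for Slfn2 in CT26 (−0.14 to 0.023), CT26NYESO1 (−0.098 to 0.14), LL2 (−0.41 to 0.098), the average (−0.14 to 0.027) and CT26NYESO1 Ctrl against CT26 Ctrl (−0.19 to 0.039). It also did so for Slfn1 in CT26NYESO1 (−0.059 to 0.19), Slfn4 on average (−0.060 to 0.24) and Slfn4 in LL2 Ctrl against CT26NYESO1 Ctrl (−0.17 to 0.65). The causes were not tested. In the whole table, CT26NYESO1 calls numbered 112, against 42 without the filter, 0 in a fit of that tumour type alone and 4 to 673 with 1 library left out. Replicate numbers are shared between groups, and whether they pair the samples was not established. Same-number correlations across genes were −0.12 to 0.22, the highest for LL2 replicate 2, and cannot decide this. The permutation test treated the groups as unpaired. With a replicate block 0 members were called for each OK432 effect, its average and differences, and 5, 7 and 4 in the control comparisons. TPM keeps no depth, so no limit from depth could be given.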

Other observations

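The other genes with the Schlafen name were low. Slfn10-ps averaged 2.42 TPM in CT26 OK432 and 3.34 in CT26 Ctrl tumours, 2.33 in CT26NYESO1 OK432 and 2.61 in CT26NYESO1 Ctrl, and 3.94 in LL2 OK432 and 4.03 in LL2 Ctrl. It was thus highest in the tumour type in which Slfn8 and Slfn9 were lowest. Slfn14 reached 0.0209 TPM at most, Slfnl1 0.157 and the antisense gene Slfn5os, which overlaps Slfn5 on the opposite strand, 0.342.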
